A study of Mus musculus with 2 samples.

Results

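Histone genes were compared between CD4 T cells from 2 mouse spleen cultures. Members were the noncontrol probes whose gene name began with Hist1h, Hist2h, Hist3h, Hist4h, H2af, H3f3, H1f0 or H1fx. This gave 76 of 55681 probes and 62 of 24324 named genes, of which 49 were replication-dependent genes (the Hist names) and 13 were variant genes. The variant set holds the replacement forms of the H2A and H3 families and the linker forms H1f0 and H1fx.

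Both cultures used spleen cells of female OVA-TCR-Tg mice, whose transgenic T cell receptor recognises ovalbumin (OVA), and both received OVA at 0.1 mg/mL for 24 h before CD4+ T cells were sorted. The naive-only culture held cells at 2.5 × 10⁶ per mL. In the co-culture, naive cells at 1.25 × 10⁶ per mL were joined by as many spleen cells that had first been stimulated with 0.1 μg/mL of TSST-1, a bacterial superantigen, and that the sample title calls anergic (poorly responsive to antigen). The sources used here do not give whether sorting kept the naive and the pre-stimulated cells apart, nor the age of the mice, the number pooled and the promoter of the transgene. Each culture was measured on 1 array of a single colour, so differences have no replicate check, no test was possible, and precision is limited by the number of arrays.

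Histones are the proteins around which DNA is wound. The replication-dependent genes lie in clusters, have no introns and are transcribed mainly while DNA is being copied, and their mRNAs usually end in a conserved hairpin in place of a poly(A) tail. Variant histone genes mostly give ordinary polyadenylated mRNAs and are also made outside S phase, so the balance between the groups is often read in lymphocytes that enter or leave division. Some replication-dependent genes also give longer, polyadenylated transcripts that run past the hairpin.

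The hairpin could be read directly in some of the array probes, and these sequences are shown because they place each of those probes relative to the end of the mature mRNA. A script searched every noncontrol probe, on the strand printed on the array, for a perfect 6-base stem that starts with GG around a 4-base loop of A, C or T with at least 1 T. It found 22 probes, of which 6 were histone members. Each line gives the 16 bases of the hairpin in capitals with 3 bases on either side, and the positions are on mm9.
Hist1h3a, chr13:23853756-23853777, minus strand: aaaGGCTCTTTTCAGAGCCaca
Hist1h3g, chr13:23627755-23627776, plus strand: aaaGGCTCTTCTTAGAGCCacc
Hist1h3i, chr13:21874786-21874807, minus strand: aaaGGCTCTTTTCAGAGCCccc
Hist1h4m, chr13:21903995-21904016, plus strand: aaaGGCCCTTTTCAGGGCCatc
Hist2h2bb, chr3:96074091-96074112, plus strand: aaaGGCTCTTTTCAGAGCCact
Hist2h2aa1, chr3:96049952-96049973, plus strand: aaaGGCTCTTTTCAGAGCCacc

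Most replication-dependent histone genes were higher in the co-culture. Of the 49 genes, 40 were well above background on both arrays, 5 on the co-culture array only and 4 on neither. Of all 24324 named genes, 733 were so on the co-culture array only, 830 on the naive-only array only and 9753 on neither. Among the 40, 27 (67.5%) were higher in the co-culture by 2-fold or more and 1 was lower, where 8.25% and 5.19% of the 13008 measured genes of the array were higher and lower by that much. At 1.5-fold, 32 of the 40 were higher and 1 lower, against 15.7% and 14.2% of all measured genes. At 4-fold, 17 of the 40 (42.5%) were higher, against 2.31% of all measured genes. The median log2 difference, co-culture minus naive-only, was 1.48 (2.78-fold), whereas over all measured genes it was -0.04. Single genes ran from -2.06 to 3.43, and 38 of the 40 differences were above 0.

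Of the 13 variant genes, 10 were above background on both arrays and 3 on neither (H2afb1, H2afb2-ps and H2afy3). Of the 10, 5 were at least 2-fold higher and none lower, with a median of 0.86 (1.81-fold) and a range from -0.27 to 2.16. The medians of the replication-dependent and variant sets thus differed by 0.62 on the log2 scale, with no test. This gap ran from 0.50 to 1.88 over the processing alternatives and the choice of probe. Counted by probe, 31 of 44 measured replication-dependent probes and 5 of 17 measured variant probes were at least 2-fold higher, with medians of 1.58 and 0.11, beside 6.56% of all measured probes. By probe, 1 replication-dependent and no variant probe was at least 2-fold lower, beside 5.12% of all measured probes.

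**Figure D1:**
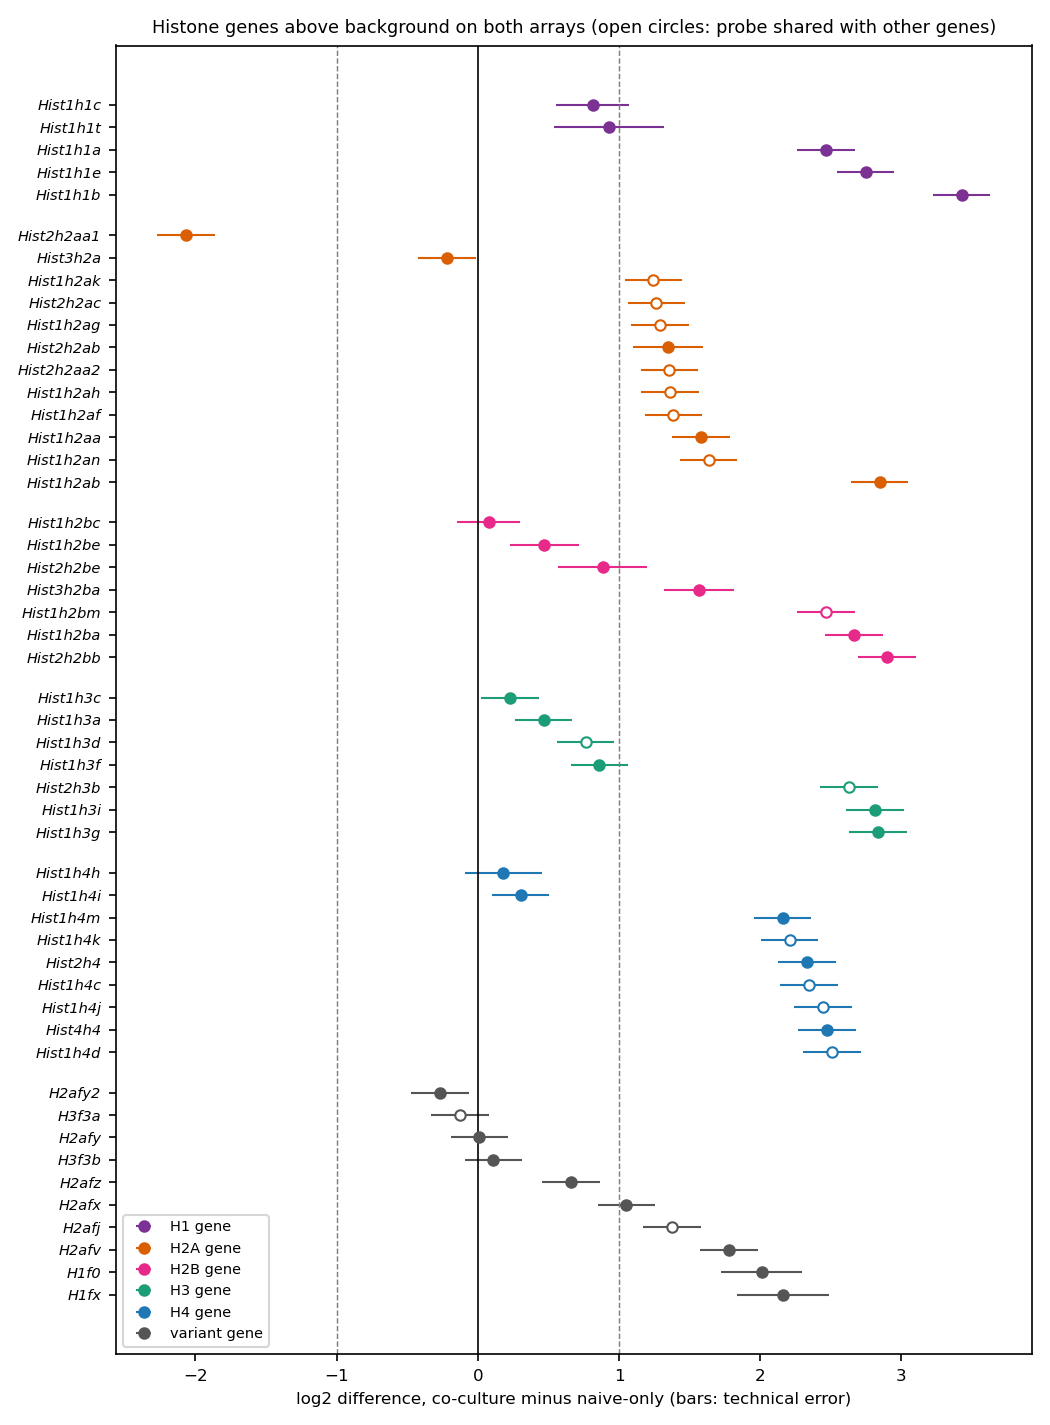
Each point is a histone gene above background on both arrays, placed by its log2 difference (co-culture minus naive-only) and grouped by histone class; bars are the technical error of the scanner software and open circles are probes shared with other genes. The 27 replication-dependent genes past the right dashed line (2-fold) come from every class, Hist2h2aa1 is the single gene past the left one, and the variant genes spread from -0.27 to 2.16.

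The technical error of a difference, which combines the software's errors of the 2 spots and holds no biological spread, had a median of 0.20 among measured replication-dependent genes and reached 0.39. The lowest value was the same 0.20 among replication-dependent, variant and all measured genes. At bright spots it is thus nearly a constant of the software rather than a measured spread. The technical error is given as ± below. All signals are in intensity units of the scanner, and each difference is taken after the signal of each array was scaled to its 75th percentile, 299.4 in the naive-only culture and 301.3 on the co-culture array. Signals of different probes are not comparable with each other, since probes bind with different strength.

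The H1 genes encode the linker histones, which bind DNA between nucleosomes. Of 6 genes, 5 were measured on both arrays and 3 were at least 2-fold higher in the co-culture, with a median of 2.47. Hist1h1b, read by a probe at chr13:21871923-21871982 (mm9, minus strand), had a signal of 2964 in the naive-only culture and 32046 in the co-culture, a difference of 3.43 ± 0.20 and the highest of the measured histone genes. Hist1h1e went from 4619 in the naive-only culture to 31178 in the co-culture, a difference of 2.75 ± 0.20. For Hist1h1a the signals were 224 and 1248, a difference of 2.47 ± 0.21. The same 3 genes stood well apart from Hist1h1c and from Hist1h1t, the testis form, whose differences of 0.81 and 0.93 came from dim spots and were under 2-fold. Hist1h1d was above background on neither array.

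H2A pairs with H2B in the nucleosome, and its genes are so alike that many probes cannot tell them apart. A probe is called shared here if the file lists accessions of more than 1 gene for it or if it matches the probe of another histone gene at 90% or more over at least 40 bases. The 4 probes below are shown because they carry the common signal: they cover the same end of the H2A reading frame, are the same at 50 of 60 positions, and each ends in a stop codon. Capitals mark the 10 positions at which they differ, and positions are on mm9.
Hist1h2af, chr13:23626113-23626172, plus strand: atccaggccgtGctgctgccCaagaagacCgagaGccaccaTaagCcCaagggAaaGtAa
Hist1h2ak, chr13:21845304-21845363, minus strand: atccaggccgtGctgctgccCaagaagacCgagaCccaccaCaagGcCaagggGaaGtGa
Hist1h2an, chr13:21878695-21878754, minus strand: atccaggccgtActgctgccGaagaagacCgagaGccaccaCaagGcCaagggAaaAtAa
Hist2h2aa2, chr3:96049837-96049896, plus strand: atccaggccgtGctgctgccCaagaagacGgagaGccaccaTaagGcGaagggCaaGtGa

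Of the 14 H2A genes, 12 were measured on both arrays; in the co-culture 10 of them were at least 2-fold higher and 1 was lower, with a median of 1.35. All 7 genes read by shared probes lay between 1.24 and 1.63. Hist1h2ah, the H2A gene with the highest signal, measured 141498 in the naive-only culture and 365762 in the co-culture, a difference of 1.36 ± 0.20 (2.57-fold). Hist1h2af measured 121451 and 319291 in the naive-only culture and the co-culture (1.39), and Hist1h2an 82961 and 259186 (1.63). These values and those that follow cannot be assigned to 1 gene each, because RNA of any near-identical copy can bind. Hist1h2ag measured 112910 and 278208 (1.29), Hist1h2ak 112455 and 267927 (1.24), and Hist2h2ac 103053 and 249142 (1.26), each naive-only first. Hist2h2aa2, a member of the small chromosome 3 cluster, measured 92784 and 239247 (1.36).

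The H2A genes with probes not marked as shared were more spread. Hist1h2ab was the highest of those measured on both arrays, with a signal of 10809 in the naive-only culture and 78127 in the co-culture, a difference of 2.84 ± 0.20 (7.18-fold). Hist1h2aa, a testis form of H2A, went from 177 to 533 (1.58 ± 0.21). Hist2h2ab went from 49.7 to 127, a difference of 1.35 ± 0.24 that fell to 0.75, under 2-fold, with another background correction (normexp). Hist3h2a lay the other way and under 2-fold, at 464 in the naive-only culture and 400.2 in the co-culture (-0.22). Above background on the co-culture array only were Hist1h2ae, at least 8.85-fold higher there with signals of 6.35 and 163, and Hist1h2ac, at least 1.23-fold higher with signals of 8.60 and 22.7. A bound, written as at least, takes for the dim array the higher of the probe's own level and the lowest level called well above background there. It leaves out the technical error, so it is not a strict limit. For Hist1h2ac that error, 0.71, was larger than the log2 bound of 0.30.

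Hist2h2aa1 was the only measured histone gene at least 2-fold lower in the co-culture. Its signal was 1197 in the naive-only culture and 288 in the co-culture, a difference of -2.06 ± 0.21 (4.18-fold lower). Its probe starts 112 bases downstream of the Hist2h2aa2 probe, on the same copy of the gene, and holds the hairpin followed by 38 further bases. The Hist2h2aa2 probe, which ends at the stop codon and is shared, was higher in the co-culture. Both directions were therefore read from neighbouring stretches, 1 within the reading frame and 1 mostly beyond the hairpin.

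The other probes with a whole hairpin ended 3 to 6 bases after it, and none of these 5 was lower in the co-culture. Hist1h3g, Hist1h3i, Hist1h4m and Hist2h2bb had differences from 2.16 to 2.90, and Hist1h3a had 0.47. Hist1h2ab, whose probe ends inside the hairpin, was at 2.84. The Hist1h2ae probe, which starts inside the hairpin and runs 48 bases past it, was above background in the co-culture only. Whether the probes past the hairpin read longer transcripts was not tested.

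H2B had 12 genes, of which 7 were measured on both arrays, 3 on the co-culture array only and 2 on neither (Hist1h2bq and Hist3h2bb-ps). Among the 7, 4 were at least 2-fold higher in the co-culture, with a median of 1.57. Hist2h2bb went from 789 in the naive-only culture to 5925 in the co-culture, a difference of 2.90 ± 0.20 (7.46-fold). Hist1h2ba, known as the testis form of H2B, went from 1308 to 8339 (2.66 ± 0.20). Hist1h2bm, the H2B gene with the highest signal, read by a shared probe, went from 2610 to 14497 (2.46 ± 0.20). These 3 genes were above 4-fold, and the remaining gene past 2-fold was dim. Hist3h2ba measured 51.9 and 155, a difference of 1.57 ± 0.25 that became 0.86 with the normexp correction.

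The bounds for H2B lay on the side of the co-culture, which follows largely from detection on that array only. Hist1h2bb was at least 6.65-fold higher in the co-culture, with signals of 19.1 and 127. Hist1h2bg was at least 3.55-fold higher, with signals of 8.68 and 65.5. Hist1h2bp, at least 1.52-fold higher with signals of 5.83 and 28.1, had the weakest bound of the class. Its technical error of 0.98 was larger than its log2 bound of 0.61. Hist1h2bc, Hist1h2be and Hist2h2be stayed under 2-fold, with differences from 0.08 to 0.88.

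The H3 genes, which with H4 form the core of the nucleosome, fell into groups with a gap between them. Of 8 genes, 7 were measured and 3 were at least 2-fold higher in the co-culture, with a median of 0.86; the pseudogene Hist2h3c2-ps was above background on neither. Hist1h3g went from 285 in the naive-only culture to 2041 in the co-culture (2.83 ± 0.21). Hist1h3i went from 241 to 1704 (2.81 ± 0.21), and Hist2h3b, read by a shared probe, from 1463 to 9113 (2.63 ± 0.20). The other 4 genes lay between 0.23 and 0.86. Among them was Hist1h3d, the H3 gene with the highest signal, also read by a shared probe, at 31033 and 53012 (0.76 ± 0.20).

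All 9 H4 genes were measured, and 7 were at least 2-fold higher in the co-culture, with a median of 2.33. The 7 lay close together, from 2.16 to 2.51. Hist1h4k, the H4 gene with the highest signal, went from 27641 in the naive-only culture to 128537 in the co-culture (2.21 ± 0.20, 4.62-fold). Hist2h4 measured 22856 and 115586 (2.33), Hist1h4d 10463 and 59964 (2.51), and Hist4h4 4674 and 26087 (2.47). All of these encode the same H4 protein from separate loci on 3 chromosomes. Hist1h4j measured 1198 and 6559 (2.44), Hist1h4c 627 and 3207 (2.35), and Hist1h4m 348 and 1564 (2.16), naive-only first in each. The probes of Hist1h4k, Hist1h4d, Hist1h4j and Hist1h4c are shared, so these values cannot be assigned to 1 gene each and may read the same RNA. Hist1h4h, at 0.18, was under 2-fold. Hist1h4i was under 2-fold, at 0.30, on the brightest of its probes but past 2-fold on its other probes, which are described with the genes that have several.

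Counted by gene name, the differences were not tied to 1 cluster of the genome. In the large Hist1h cluster on chromosome 13, 19 of 29 measured genes were at least 2-fold higher in the co-culture and none lower. In the Hist2h cluster on chromosome 3, 6 of 8 were higher and 1 lower. Of those higher, Hist2h2aa2, Hist2h2ac and Hist2h3b had shared probes, which can bind RNA of other copies, while Hist2h2bb and Hist2h4 did not. In the Hist3h cluster on chromosome 11, 1 of 2 was higher, and the single Hist4h gene, on chromosome 6, was higher. Hist2h2ab and the higher Hist3h gene, Hist3h2ba, fell under 2-fold with the normexp correction. Probes marked as shared did not carry the whole result. Higher were 13 of 14 measured genes with such a probe and 14 of 26 without one, with medians of 1.51 and 1.46. The marking used listed accessions and other histone probes only, so more probes could be shared than were marked. Across the 44 measured replication-dependent probes, the naive-only level and the difference had a Spearman correlation of 0.23, given as a description because the level enters the difference.

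**Figure D2:**
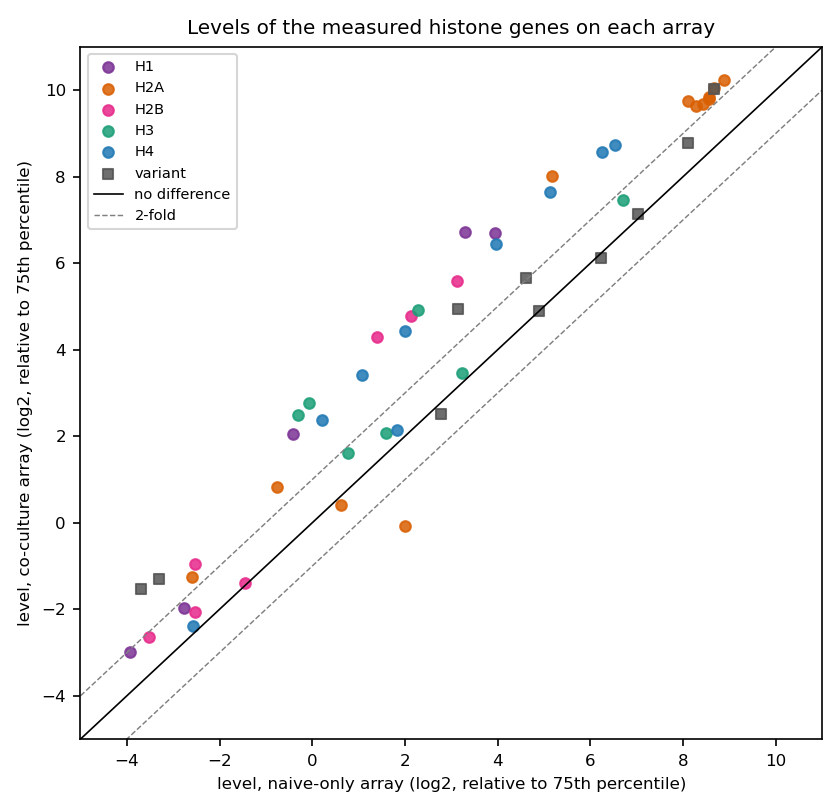
Each point is a measured histone gene, with its level (log2 signal relative to the 75th percentile of the array) on the naive-only array across and on the co-culture array upward. Replication-dependent genes (circles) lie above the upper 2-fold line at low and at high levels, while several variant genes (squares) lie along the line of no difference.

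Among the 10 variants measured on both arrays, the linker forms had the largest differences and the dimmest signals. H1fx measured 23.0 in the naive-only culture and 104 in the co-culture (2.16 ± 0.33, 4.47-fold). H1f0, a linker histone known from cells that have stopped dividing, measured 30.2 and 123 (2.01 ± 0.29). Both became about 1 log2 unit with the normexp correction, 1.02 for H1fx and 1.03 for H1f0, so their size depends on how the background is taken off.

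The H2A variants differed among themselves. H2afv and H2afz encode the forms known as H2A.Z, which replace H2A at promoters. H2afv went from 2665 in the naive-only culture to 9207 in the co-culture (1.78 ± 0.20). H2afz, at 82668 and 131535, was higher by 0.66 ± 0.20 (1.58-fold), under 2-fold. H2afx, whose protein is phosphorylated at DNA breaks, measured 7309 and 15256 (1.05 ± 0.20). The macroH2A genes, which carry a large extra domain, were near 0 or below, with H2afy at 8841 and 8971 (0.01) and H2afy2 at 2069 and 1731 (-0.27).

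H3f3a and H3f3b encode the same replacement form of H3, which is placed on DNA outside replication. H3f3a measured 22612 in the naive-only culture and 20871 in the co-culture (-0.12 ± 0.20). H3f3b measured 39030 and 42420 (0.11 ± 0.20). Both differences were smaller than their technical error, though the other H3f3a probe, at -0.22 ± 0.20, was just beyond it. Of the replication-dependent H3 genes, Hist1h3g, Hist1h3i and Hist2h3b were above 4-fold, while the other 4 measured ones lay between 0.23 and 0.86.

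H2afj was the variant whose value depended most on the choice among its measured probes, ahead of H2afv. Its first probe measured 121062 in the naive-only culture and 315876 in the co-culture (1.37 ± 0.20), which is within the range of the shared H2A probes. Over 50 bases this probe is the same as that of the replication-dependent gene Hist2h2ac at 45 positions, and both overlaps are shown with the 5 differing positions in capitals (mm9).
H2afj, chr6:136757191-136757240, plus strand: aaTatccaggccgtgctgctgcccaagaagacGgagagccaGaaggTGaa
Hist2h2ac, chr3:96024388-96024437, minus strand: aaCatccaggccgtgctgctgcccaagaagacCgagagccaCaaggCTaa
The other H2afj probe lies 1252 bases downstream, has no such match, and measured 578 and 563 (-0.05 ± 0.20).

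Genes with more than 1 probe, 11 in all, gave a check within each array. The variants H2afz, H3f3a and H3f3b agreed between probes: H2afz had 0.66 and 0.65, H3f3a -0.12 and -0.22, and H3f3b 0.01, -0.02 and 0.11. The probes of H2afj did not agree, at 1.37 and -0.05. H2afy had -0.07 and 0.01 on its measured probes, and a dim one above background on the co-culture array only was at least 1.85-fold higher there. H2afv had 1.78 and, on a dim probe 925 bases downstream, 0.77.

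Among the replication-dependent genes, Hist1h2ak had 2.55 on a probe not marked as shared (12722 naive-only and 74805 co-culture). It had 1.24 on the shared probe 333 bases downstream. Hist1h4i had its highest difference, 3.99-fold, on its first probe, and log2 differences of 0.30 on a probe 460 bases downstream and 1.18 at 548 bases. Hist1h4k had 2.53 and 2.21, both from shared probes. The first probe of Hist2h4, above background on the co-culture array only, was at least 3.33-fold higher there, beside 2.33 on the measured one. Hist4h4 had 2.47, whereas a probe 1576 bases downstream was above background on the naive-only array only, with signals of 22.4 and 4.64. That probe was at least 1.12-fold lower in the co-culture, but its technical error of 1.48 was larger in size than the log2 bound of -0.16.

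**Figure D3:**
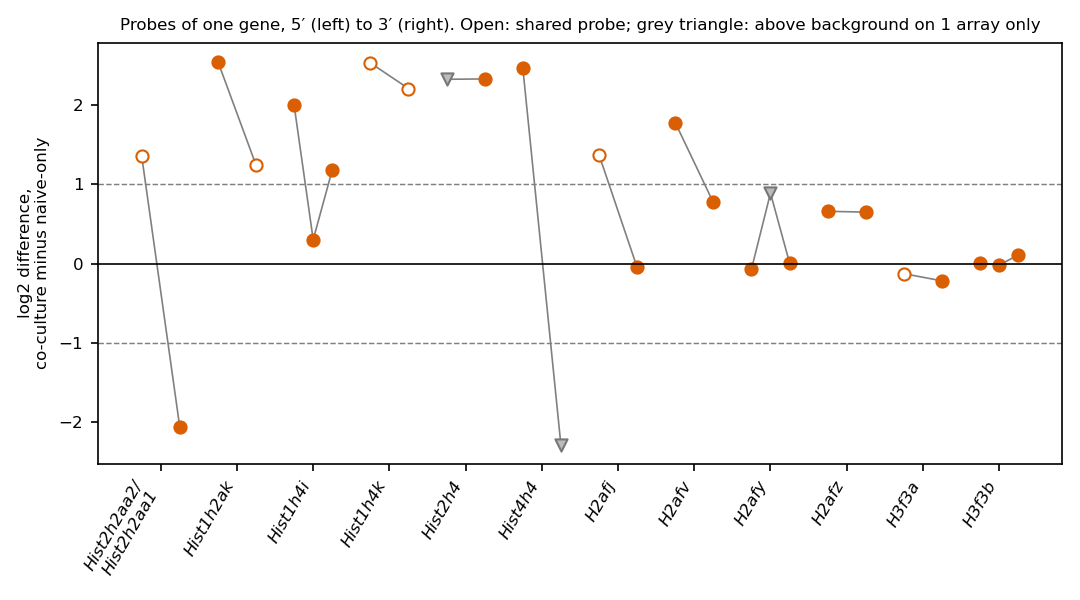
Log2 difference (co-culture minus naive-only) of every probe of the genes with more than 1 probe, and of the adjoining Hist2h2aa2 and Hist2h2aa1 probes, ordered 5′ to 3′ within a gene; open circles are shared probes and triangles are probes above background on 1 array only, drawn at their measured difference. Downstream probes of Hist2h2aa1, Hist4h4 (dim, above background on the naive-only array only) and H2afj lie at or below 0 while the upstream ones are above 1. Downstream probes of Hist1h2ak, Hist1h4i, Hist1h4k, Hist2h4 and H2afv lie above 0, and probes of H2afz, H3f3a and H3f3b coincide.

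The promoters of the replication-dependent genes share letters that the choice of members did not use. RefSeq (GRCm38.p6) promoters from 250 bases before to 50 after the start were matched for 42 of the 49 replication-dependent and 10 of the 13 variant genes, and searched on both strands for CCAAT, for TATAAA and for TTTGCAT, which is part of the octamer known from H2B promoters. CCAAT was in 36 of 42 replication-dependent promoters (85.7%), 6 of 10 variant promoters and 37.4% of all 32851 promoters. TATAAA was in 26 of 42 (61.9%), 1 of 10 and 13.6%, and TTTGCAT in 13 of 42 (31.0%), 2 of 10 and 4.63%. Windows of genes that lie head to head can overlap, so the promoters are not independent of each other.

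By class, CCAAT was in every matched H1, H2A, H2B and H3 promoter but in only 2 of 8 H4 promoters, although 7 of the 9 H4 genes were at least 2-fold higher. TTTGCAT was in 5 of 9 H2B promoters and in none of the H1 or H3 ones. The H2B genes with it were Hist1h2ba, Hist1h2bb, Hist1h2bg, Hist1h2bm and Hist2h2bb, which are those with differences of 2.46 or more or with bounds of at least 3.55-fold, a split noticed after the values were seen. H2B genes without it were Hist1h2be at 0.47, Hist1h2bp with its bound of 1.52-fold, Hist3h2ba at 1.57 and Hist1h2bq, above background on neither array. Among the 7 H2A genes with the letters were Hist1h2ab at 2.84, Hist1h2ae with its bound of 8.85-fold, Hist1h2aa at 1.58 and Hist3h2a at -0.22. Hist1h2ac, with its bound of 1.23-fold, also had them, as did Hist1h2ah and Hist2h2ac, read by shared probes. Those without them included Hist2h2ab at 1.35, Hist2h2aa1 at -2.06 and Hist1h2ak, at 2.55 on its probe not marked as shared. The others without them were read by shared probes, whose values cannot be assigned to 1 gene. The H2A genes thus did not show the split seen for H2B. Stretches of 120 bases of 4 promoters are shown, for the H1 gene with the highest difference, for 2 H2B genes and for H2afz, with the motifs in capitals on whichever strand they were found (GRCm38.p6).
Hist1h1b, chr13:21780626-21780745, minus strand: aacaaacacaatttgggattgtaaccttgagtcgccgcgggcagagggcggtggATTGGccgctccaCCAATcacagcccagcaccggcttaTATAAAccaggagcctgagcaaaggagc
Hist2h2bb, chr3:96269580-96269699, plus strand: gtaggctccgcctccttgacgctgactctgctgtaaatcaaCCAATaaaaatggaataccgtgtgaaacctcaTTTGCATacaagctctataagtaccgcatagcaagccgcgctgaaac
Hist1h2bm, chr13:21721924-21722043, plus strand: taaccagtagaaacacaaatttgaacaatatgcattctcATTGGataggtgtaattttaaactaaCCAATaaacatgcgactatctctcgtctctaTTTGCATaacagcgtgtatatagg
H2afz, chr3:137864367-137864486, plus strand: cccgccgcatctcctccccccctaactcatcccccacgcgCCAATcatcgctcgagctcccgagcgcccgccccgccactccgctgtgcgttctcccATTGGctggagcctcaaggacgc
A match describes the letters in this window and is not evidence that a factor binds there.

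Genes that make, process and place histones did not share the high histone counts and were nearer the shares of all measured genes. At 2-fold, those shares were 8.25% higher and 5.19% lower. The median of 15 measured genes for processing of histone mRNA was 0.15. Among them, 1 (6.67%) was at least 2-fold higher in the co-culture and none lower. That gene was Zfp473, which encodes a zinc finger protein of the histone pre-mRNA processing complex, with levels of -1.51 in the naive-only culture and 0.55 in the co-culture (log2 scale, against the 75th percentile) and a difference of 2.06 ± 0.21. Slbp, whose protein binds the hairpin, had levels of 3.25 and 3.28 (0.03 ± 0.20). Npat, the coactivator of replication-dependent histone transcription, was above background on neither array.

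Of 33 measured genes for histone chaperones and deposition, 1 (3.03%) was at least 2-fold higher and none lower, with a median of -0.03. Asf1b, a chaperone of H3 and H4 in dividing cells, was at the threshold, with levels of 4.43 and 5.43 (2-fold), and was under 2-fold with the normexp correction or without flagged spots. Chaf1a, of the complex that loads histones behind the replication fork, had 3.72 and 4.04 (0.32 ± 0.20). Hira and Daxx, which serve the replacement form of H3, had differences of -0.03 and -0.21 from levels of 1.95 and 1.92, and of 5.04 and 4.83.

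Of 45 measured DNA replication genes, 3 (6.67%) were at least 2-fold higher and none lower, with a median of 0.14. They were Tk1 (levels of 3.29 and 5.65, a difference of 2.36) and Rrm2 (5.38 and 6.62, a difference of 1.24), both for nucleotide supply, and the G1 cyclin Ccne1 (4.60 and 5.69, a difference of 1.09). Pcna, the sliding clamp of DNA polymerase, had levels of 7.34 and 7.48 (0.13 ± 0.20). The median histone difference was thus far above the medians of the genes for histone supply and DNA copying on the same arrays, a description with no test.

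**Figure D4:**
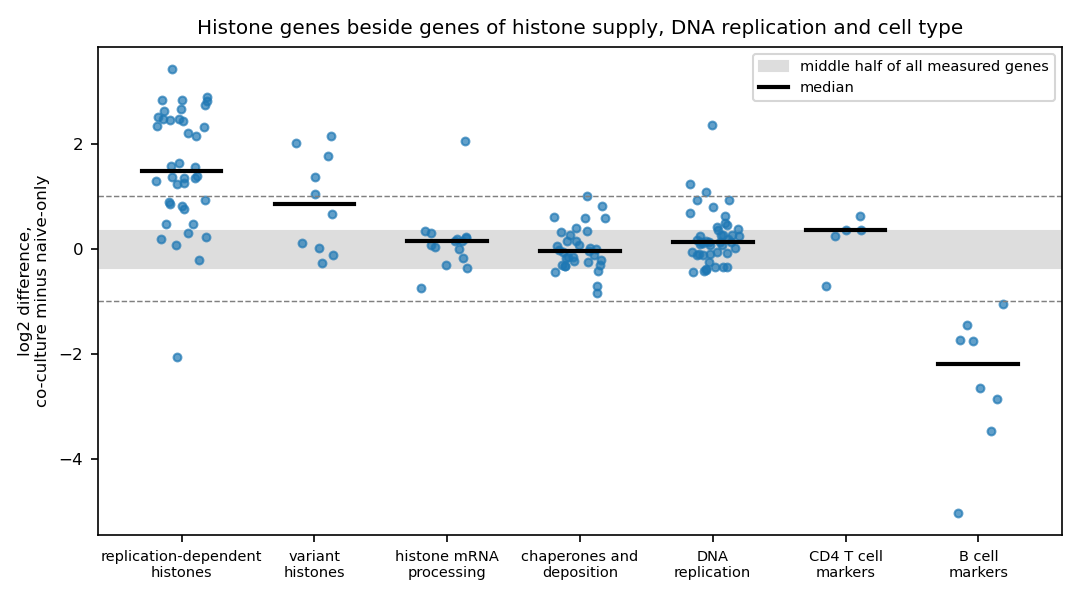
Each point is a gene above background on both arrays, with its log2 difference (co-culture minus naive-only) upward, by gene group; black lines are group medians and the grey band runs from the lower to the upper quartile of all measured genes. The medians of replication-dependent (1.48) and variant histones (0.86) lie above the band, those of mRNA processing, chaperones and DNA replication inside it, and the B cell markers below -1.

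The defining genes of CD4 T cells were present: Cd3e, Cd4, Lck, Thy1 and Cd28 were above background on both arrays, with differences from -0.71 to 0.63 (5 of the 6 fixed CD4 T cell markers had a named probe). Markers of other cells differed between the cultures too. Of 10 B cell markers, 8 were above background on both arrays and all 8 were at least 2-fold lower in the co-culture, with a median of -2.20, while Blk and Pax5 were above background on the naive-only array only. The largest B cell differences were Ms4a1 at -5.03, Spib at -3.46, Fcer2a at -2.86 and Bank1 at -2.65. The 4 class II genes were also at least 2-fold lower, with a median of -2.95, from H2-Ab1 at -1.35 through Cd74 at -2.79 and H2-Eb1 at -3.12 to H2-Aa, 16.0-fold lower. At least 2-fold lower as well were 2 of 3 measured dendritic cell markers (Fscn1 at -4.56 and Flt3 at -2.87) and 2 of 3 plasma cell markers (Jchain at -3.20 and Mzb1 at -1.46). The same held for 2 of 5 macrophage and monocyte markers (Cd14 at -1.71 and Lyz2 at -1.12), the 1 measured NK cell marker (Tyrobp at -1.50) and both measured erythroid markers (Hbb-bt at -1.18 and Hba-a1 at -1.09). No measured marker of these lists was at least 2-fold higher, and the CD8 T cell markers Cd8a and Cd8b1 were under 2-fold, at 0.52 and -0.56. Over all measured genes, 8.25% were at least 2-fold higher and 5.19% lower. The part of other cells in the histone differences was not tested, and fewer cells of a type and less RNA per cell cannot be told apart.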

How the data were processed

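Per the labels' protocols, total RNA went through the Ovation V2 amplification kit and was labelled with Cy3. Amplification can change relative levels, and its effect on histone mRNAs was not tested. Per the file headers, Feature Extraction 10.7.1.1 gave a background-subtracted signal intensity and flags, while version 9.5.1.1 stands in the submitters' processing notes. The authors' deposited value table holds a normalized intensity and was used as an alternative.

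The main level was the mean log2 signal of the spots of a probe, less the array's 75th percentile. The brightest probe stood for its gene, and a gene counted as measured if both arrays called that probe well above background. Of noncontrol probes, 25744 (46.2%) naive-only and 25136 (45.1%) co-culture passed, and 0 spots were saturated. Only probes with a gene name were counted as genes (33184), and 22497 had none. The files place probes on mm9. RefSeq (GRCm38.p6) gave symbols and promoters; exon and UTR placement was not used here.

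Values on both arrays are given for members past 2-fold, all measured variants, the brightest gene of each replication-dependent class and bounds; other members are given by range. From other lists, members past 2-fold (at most 4 a direction) and Slbp, Npat, Chaf1a, Asf1b, Hira, Daxx and Pcna are named. The members and lists were chosen with earlier results of these data known. Counting was tested on simulated data. Python 3.11.15, numpy 2.4.6 and pandas 2.3.3 (quantile normalization among others), R 4.3.3 and limma 3.58.1 (normexp, offset 50) and matplotlib 3.10.9 were used.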

Additional observations from a re-analysis of the deposited data

How the results depend on the processing

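No paired analysis was possible because each culture has 1 array and the titles carry no replicate numbers. The alternatives gave 184 values for the group results, of which 158 stayed close to the reported one and 26 moved. The count of reversed values was 0. Only medians of at least 1 in size could be labelled reversed, and counts could not, so this 0 says little. A named gene counted as moved if its difference changed by more than its technical error. Quantile normalization and the authors' deposited value table moved none of the 38 named histone genes, but their values were nearly the same, so they are not separate checks. Median scaling shifts every gene by the same amount, smaller than that error, so it could move none. The normexp correction moved 9 and took Hist2h2ab and Hist3h2ba under 2-fold. With no filter on dim probes, 2 histone genes (both replication-dependent) were at least 2-fold lower, the variant median was 0.46 and the gap between the medians 0.94. With only genes at or above the median level, 0 were lower, in all and among replication-dependent genes, whose median was 2.27; variants had 3 higher and a median of 0.39, the gap was 1.88, and 0 processing genes were higher. With the median of all probes of a gene, the gap was 0.92. Other choices were made after seeing the data. With the dimmest probe, 3 variants were higher, their median was 0.33 and the gap 1.25. With unshared probes only, 19 histone and 15 replication-dependent genes were higher (of 37 and 27), the medians of all histone and variant genes were 1.05 and 0.39, and the gap was 1.18. Among chaperones, 0 were higher with normexp and 0 without flagged spots. At 1.5-fold, 3 of 33 chaperones were higher and 2 lower, 1 of 15 processing genes was lower and 8 of 45 replication genes were higher. Of all measured genes, 15.7% were higher and 14.2% lower by that much. The causes were not tested. Dim spots limit H1f0, H1fx and the genes given as bounds.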
